A study of Mus musculus with 6 samples.

Results

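The genes described here are 32 members of a program named after the stress transcription factor ATF4. They were chosen by name for their roles in amino acid synthesis, amino acid transport, one-carbon metabolism and the integrated stress response. Whether each is a target of ATF4 in microglia was not tested. Each of the 32 symbols matched 1 row of a deposited table of 55487 genes. The libraries came from microglia, the macrophages that reside in brain tissue, isolated from the cortex of 6 female mice at 20 months of age by sorting live CD45int CD11b+ cells. The 3 control mice were Atg7-fl/fl and the 3 knockout mice were Atg7-fl/fl;Cx3cr1-CreERT2, so all 6 carried the floxed Atg7 alleles and the Cre allele was present in the knockouts alone. Atg7 encodes an enzyme required to build autophagosomes. CreERT2 acts after tamoxifen and here is expressed from the locus of Cx3cr1, a receptor gene of microglia that other macrophages and monocytes also use. Tamoxifen treatment is not stated in the sources used here. An effect of Atg7 loss thus cannot be told apart from an effect of carrying the Cre.

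ATF4 is made when the initiation factor eIF2 is phosphorylated by one of several kinases that sense amino acid shortage, unfolded protein in the endoplasmic reticulum, lack of heme or viral RNA. It binds DNA as a heterodimer, often with a C/EBP protein, and switches on genes that import amino acids, make serine, asparagine and proline, and feed one-carbon units into the folate cycle. Autophagy also returns amino acids to the cell by degrading its proteins, and amino acid starvation is a textbook trigger of both pathways.

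The 6 libraries differed in depth. Control 3 held 1254380 reads and knockout 2 held 3789208 reads, while the other 4 held 21282335 to 39389527, so these 2 are named the shallow libraries. A count of 3 reads stood for 2.36 CPM in control 3 and for 0.0789 in control 1. CPM is the read count relative to the library size, scaled between libraries by the trimmed mean of M values (TMM). Values of single libraries are listed in the order of their numbers, 1 to 3. The correlation of log2 CPM across genes was 0.943 to 0.965 between the deep libraries and 0.814 to 0.911 for pairs with a shallow library. Genes are not independent replicates. Atg7 had 56.6 to 66.4 CPM among controls and 23.7 to 26.5 CPM among knockouts (log2 fold change -1.33, edgeR adjusted p = 0.0147). DESeq2 and limma voom also called it (adjusted p = 2.7e-08 and 0.011). The edgeR call was lost when any library other than control 3 was left out, but the log2 fold change then stayed between -1.39 and -1.29. The summed level of 10 microglial markers was 61374 to 66809 CPM among controls and 48923 to 54328 CPM among knockouts. Without Cx3cr1, whose locus holds the Cre, these sums were 50114 to 55791 and 44797 to 49934 CPM. Summed markers of border macrophages ranged from 15.3 to 90.4 CPM among controls and from 65.0 to 262 CPM among knockouts over 10 genes. Those of monocytes ranged from 9.91 to 47.1 and from 20.7 to 143 CPM over 6 genes, and those of neutrophils from 41.9 to 376 and from 129 to 1735 CPM over 7 genes. No border macrophage, monocyte or neutrophil marker was at 0 in all 6 libraries. The part of these cells in the values below was not tested.

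No gene of the ATF4 program was called different between knockout and control microglia. Of the 32 members 29 passed the filter on low counts and were tested, and edgeR called 0 of them at an adjusted p under 0.05, where 0.0443% of all 15787 genes tested were called (0.0317% higher and 0.0127% lower). The edgeR adjusted p of each tested member was 0.999. At an unadjusted p under 0.05 edgeR gave 0 members, where the share of all genes was 4.32%. DESeq2 gave 0 members at its adjusted threshold and 2 at the unadjusted one, Psat1 and Pycr1 (0.526% and 5.09% of all genes). Limma voom gave 0 and 2, the latter Psat1 and Slc7a5 (0.095% and 9.37%). The groups did not overlap in 0 of the 29 members, against 11.1% of all genes tested (6.59% with knockouts higher and 4.47% lower). Log2 fold changes, knockout over control, lay between -0.77 and 1.80, with 10 above 0 and 19 below 0. Their median was -0.11, beside 0.02 for all genes tested, of which 47.5% lay below 0. In bulk libraries, fewer expressing cells and less RNA per cell cannot be told apart.

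A p above the threshold does not show that a gene was equal in both groups, and the precision differed greatly between members. The 95% interval of the log2 fold change lay inside -1 to 1 for 12 of the 29 tested members, or 41.4%, beside 43.2% of all genes tested. These 12 were mostly the better expressed members. Among the 15 members with a mean of at least 10 CPM the interval stayed inside these limits for 11, and log2 fold changes ran from -0.52 to 0.51. Among the 14 tested members under 10 CPM it did so for 1, and log2 fold changes ran from -0.77 to 1.80. For 13 of these 14 the interval thus reached a doubling, a halving or both. Stc2, Vldlr and Cth did not pass the filter. Stc2, a secreted glycoprotein gene, had 0 to 2 reads and Vldlr, a lipoprotein receptor gene, 0 to 7 reads in each library. Cth, the gene of the enzyme that releases cysteine at the end of transsulfuration, had 22 reads in control 2, 3 reads in knockout 2 and none in the other 4 libraries.

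**Figure D1:**
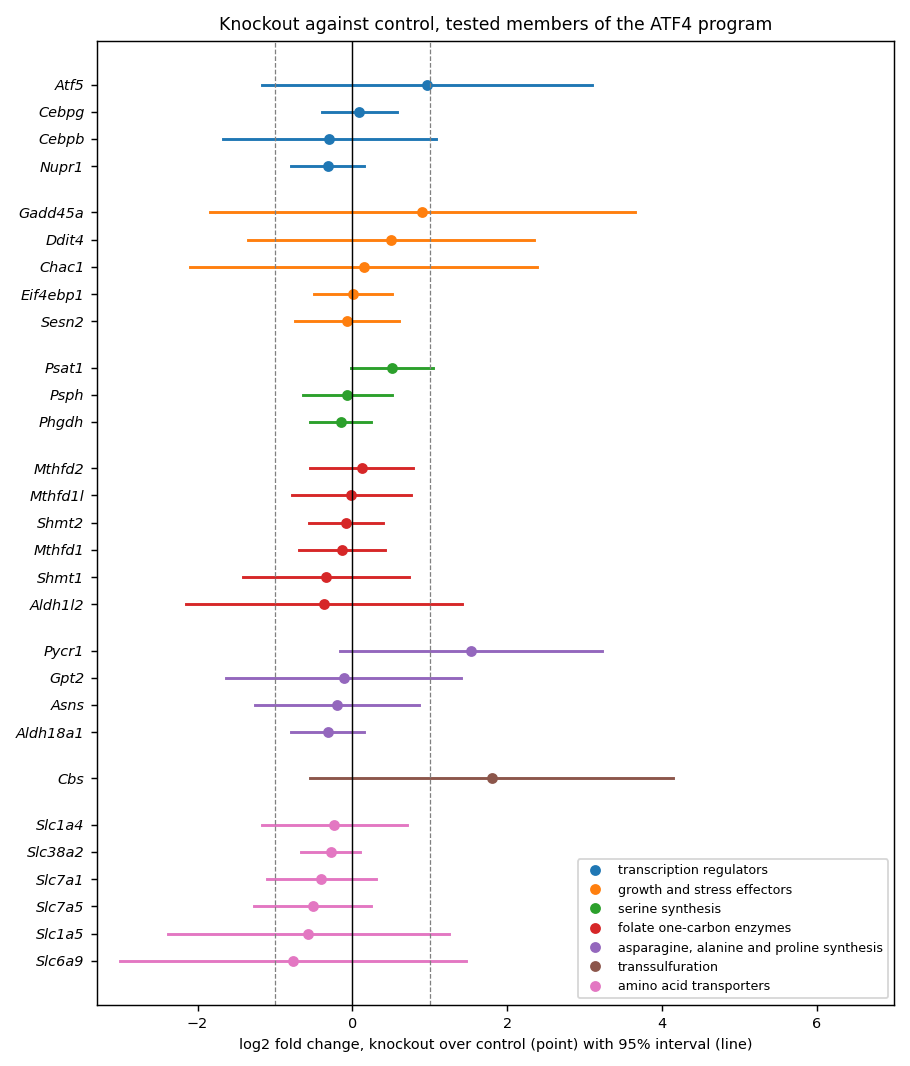
Log2 fold change of each tested member, knockout over control (points), with its 95% interval from the edgeR fit (lines), coloured by role; dashed lines mark -1 and 1. All 29 intervals include 0, and 12 of them lie wholly between the dashed lines.

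Measured per kilobase of merged exons, Phgdh stood far above the other members, at 80.4 CPM per kb over all 6 libraries. Mthfd2 followed at 16.5, Eif4ebp1 at 14.1, Slc38a2 at 12.6, Nupr1 and Shmt2 at 11.9 each and Psat1 at 10.3 CPM per kb. Asns, the best known ATF4 target among amino acid enzymes, reached 2.57 CPM per kb. Chac1 and Atf5, both classical markers of an active stress response, had 0.380 and 0.480 CPM per kb. Atf4 itself had 20.4 CPM per kb, so transcript for the factor exceeded that of every member except Phgdh on this scale.

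The DNA element that ATF4 and C/EBP proteins bind together was sought in the promoters of the members, as the contact point of the regulator that names the program. The element was spelled TGATGNAA and sought on both strands from 250 bases before to 50 bases after each annotated start, in RefSeq promoters of the assembly GRCm38.p6. It was found in 6 of the 27 members with an entry, or 22.2%, and in 4.51% of all 27025 genes with an entry. Aldh1l2, Cth, Eif4ebp1, Slc1a5 and Slc7a5 had no entry. Each site is shown 5′ to 3′ on the strand that reads TGATGNAA, with the element in capitals and 10 flanking bases on each side.
Asns: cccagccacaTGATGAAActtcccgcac
Chac1: ctggcaggagTGATGCAAcggcagggaa
Nupr1: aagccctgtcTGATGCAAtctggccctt
Pycr1: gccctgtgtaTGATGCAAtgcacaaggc
Slc1a4: aggctggagaTGATGCAAcgcaggaggc
Vldlr: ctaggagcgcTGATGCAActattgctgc
The stretches lie at chr6:7693215-7693242 on the minus strand for Asns, chr2:119351039-119351066 on the minus strand for Chac1, and chr7:126625563-126625590 on the plus strand for Nupr1. Those of Pycr1, Slc1a4 and Vldlr lie at chr11:120643834-120643861 (minus), chr11:20332700-20332727 (plus) and chr19:27216810-27216837 (minus). Counted along the gene, the element began 23 bases before the start of transcription in Asns, 110 in Nupr1 and 103 in Pycr1. The distance was 193 in Chac1, 200 in Vldlr and 4 in Slc1a4, where the element ran across the start. In Chac1, Nupr1, Slc1a4 and Vldlr the element reads on the opposite strand, so this first base is the last one of the element as shown. Among these 6 genes Asns, Chac1, Nupr1, Pycr1 and Slc1a4 were tested, with log2 fold changes of -0.20, 0.15, -0.32, 1.53 and -0.23, and Vldlr was not. A match describes letters in this window and is not evidence of binding in microglia.

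Stress transcription factor genes that are not members were measured next to them. Atf4 (ENSMUSG00000042406) had control values of 54.6, 50.5 and 35.4 CPM and knockout values of 43.2, 39.5 and 65.4 CPM. The groups overlapped, with a log2 fold change of 0.06 (95% interval -0.44 to 0.56). ATF4 is controlled chiefly by translation, which transcript counts do not measure. Ddit3, which encodes the stress factor CHOP, had control values of 9.23, 9.44 and 11.0 CPM and knockout values of 8.32, 4.94 and 10.7 CPM. Its symbol stands at 2 rows of the table, and the row of ENSMUSG00000025408 was used. This row had a log2 fold change of -0.27 (SE 0.39). Atf3, a stress factor induced downstream of ATF4, had control values of 18.0, 13.2 and 11.0 CPM and knockout values of 18.8, 28.8 and 20.3 CPM. All 3 knockout libraries lay above the controls for Atf3, but control 1 and knockout 1 differed by less than 1 CPM. The change was 0.63 on the log2 scale (SE 0.28), with an edgeR unadjusted p of 0.0405 and an adjusted p of 0.999. With 1 library left out, the log2 fold change of Atf3 ran from 0.42 to 0.87, the latter without control 1. It was 0.42 without knockout 2, 0.32 without both shallow libraries and 0.41 in limma voom. The unadjusted p in these last fits was 0.196, 0.243 and 0.0925.

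The list of 15 core genes of the integrated stress response holds these 3 factors and the eIF2 kinases. It also holds the phosphatase subunits that reverse eIF2 phosphorylation, and Eif2s1, Eif2b5, Trib3, Impact, Oma1 and Dele1. All 15 were tested and 0 were called. Their median log2 fold change was 0.06. At the unadjusted threshold 1 was higher, Atf3, and 0 were lower.

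Among the members, 4 encode regulators of transcription: Atf5, Cebpb, Cebpg and Nupr1. Cebpg (ENSMUSG00000056216), which encodes the C/EBP partner of ATF4, was the most abundant of them in CPM. It had control values of 51.2, 51.9 and 50.3 CPM and knockout values of 65.1, 34.3 and 62.9 CPM. The controls agreed within 2 CPM, while knockout 2 lay below them and the other knockouts above. EdgeR gave a log2 fold change of 0.09 (95% interval -0.40 to 0.58). Nupr1 (ENSMUSG00000030717), a small stress-induced chromatin protein gene, had control values of 30.3, 31.8 and 37.7 CPM and knockout values of 23.7, 23.9 and 31.5 CPM. Knockout 3 lay among the controls and the other knockouts below them. The fit gave a log2 fold change of -0.32 (SE 0.22, edgeR unadjusted p = 0.172), the smallest p of the 4. Cebpb, a C/EBP factor of myeloid inflammation, had 1.30 to 4.71 CPM, and Atf5, a factor of the mitochondrial stress response, had 0.263 to 1.57 CPM. In the shallow libraries these values came from at most 6 reads per gene.

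Growth and stress effectors, 7 in number, carry the response to protein synthesis, redox state and survival. Eif4ebp1 (ENSMUSG00000031490), whose product holds back cap-dependent translation when mTORC1 is off, had control values of 33.2, 37.5 and 20.4 CPM and knockout values of 32.1, 31.7 and 30.4 CPM. The knockouts lay within 2 CPM of each other, between control 3 and the other controls. This gave a log2 fold change of 0.01 (95% interval -0.49 to 0.51). Sesn2, which encodes a leucine sensor that restrains mTORC1, had 10.1 to 15.5 CPM among controls and 11.7 to 14.6 CPM among knockouts (log2 fold change -0.07, 95% interval -0.74 to 0.60). Ddit4, which encodes another mTORC1 inhibitor, REDD1, had the widest spread of the better expressed members. It had control values of 5.13, 17.6 and 13.4 CPM and knockout values of 5.89, 11.7 and 32.2 CPM. Both groups held a library near 5 CPM, and the highest value came from knockout 3. The log2 fold change of 0.49 (SE 0.76) became -0.49 without knockout 3 and 0.999 without control 2.

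The other 2 tested effectors were scarce. Chac1, which encodes a glutathione-degrading enzyme strongly induced by ATF4, ATF3 and CHOP, had control values of 0.920, 0.726 and 0 CPM and knockout values of 0.829, 0 and 1.26 CPM. The 0 values were the shallow libraries, where 3 reads equal 2.36 and 0.779 CPM, so levels like those of the deep libraries lie near or under that floor. Gadd45a, a growth arrest gene, had control values of 0.447, 0.161 and 0 CPM and knockout values of 0.385, 1.30 and 0.139 CPM. Its log2 fold change of 0.90 (SE 1.29, edgeR unadjusted p = 0.494) rested on 5 reads in knockout 2 and was -0.03 without that library. In the annotation used for lengths, 19.1% of its exonic bases are shared with an antisense gene. Whether reads were counted by strand is not stated in the sources used here. Shares above 10% were also found for Cebpb (20.7%), Slc6a9 (30.2%), Aldh1l2 (14.1%) and Psph (10.4%).

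Serine is made from a glycolytic intermediate by the enzymes of Phgdh, Psat1 and Psph, acting in that order. Phgdh (ENSMUSG00000053398) had control values of 231, 241 and 159 CPM and knockout values of 155, 200 and 215 CPM. The knockouts lay below controls 1 and 2, whereas control 3 lay near the lowest knockout. Control libraries averaged 210 CPM ± 44.8 (SD, n = 3) and knockout libraries 190 CPM ± 31.1. With all libraries the log2 fold change was -0.15 (95% interval -0.55 to 0.25), so a doubling or halving lay outside the interval. Without control 3 it was -0.33, and without control 2 it was -0.04.

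Psat1 (ENSMUSG00000024640) had the smallest p of all members. It had control values of 28.4, 29.1 and 53.4 CPM and knockout values of 56.2, 44.7 and 51.9 CPM. Controls 1 and 2 lay below every knockout, and control 3 lay inside the knockout range, with 68 reads. Means were 37.0 CPM ± 14.3 (SD, n = 3) and 50.9 CPM ± 5.84. The log2 fold change was 0.51 (SE 0.25, 95% interval -0.01 to 1.04), with an edgeR unadjusted p of 0.0559 and an adjusted p of 0.999. Without control 3 it was 0.82 (edgeR unadjusted p = 0.000828, adjusted p = 0.138), and without both shallow libraries 0.91 (adjusted p = 0.115). Without control 1 it was 0.36. Limma voom, with all libraries, gave 0.84 and an adjusted p of 0.118. None of these fits called the gene.

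Psph, which encodes the phosphatase of the final step, had 17.0 to 20.4 CPM among controls and 14.0 to 21.9 CPM among knockouts, with a log2 fold change of -0.07 (95% interval -0.64 to 0.51). The 3 genes of the pathway thus differed in their relation to control 3. That library was the lowest control for Phgdh and the highest for Psat1 and Psph. Astrocytes are the brain cells best known for high levels of serine synthesis genes, so their markers were read beside these genes. Of 10 astrocyte markers none was at 0 in all libraries. Their sum was 305 to 340 CPM among controls and 282 to 374 CPM among knockouts, nearly all of it from Slc1a3, and 26.0 to 42.4 and 32.2 to 48.1 CPM without that gene. Of the other markers Aldoc reached 24.4 CPM, Slc1a2 11.8 CPM and Aldh1l1 10.3 CPM, and the remaining 6, Gfap, Aqp4 and Gja1 among them, at most 6.29 CPM in any library. Aldh1l1, described below with the folate genes, was higher in each knockout than in each control library. Log2 fold changes of other tested astrocyte markers were -1.31 for Aqp4, -0.77 for Gja1, -0.68 for Slc1a2 and -0.51 for Atp1b2. They were 0.48 for Aldoc, 0.39 for Gfap and 0.04 for Slc1a3, and Sox9 and Slc4a4 did not pass the filter. The part of astrocyte RNA in these values was not tested.

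**Figure D2:**
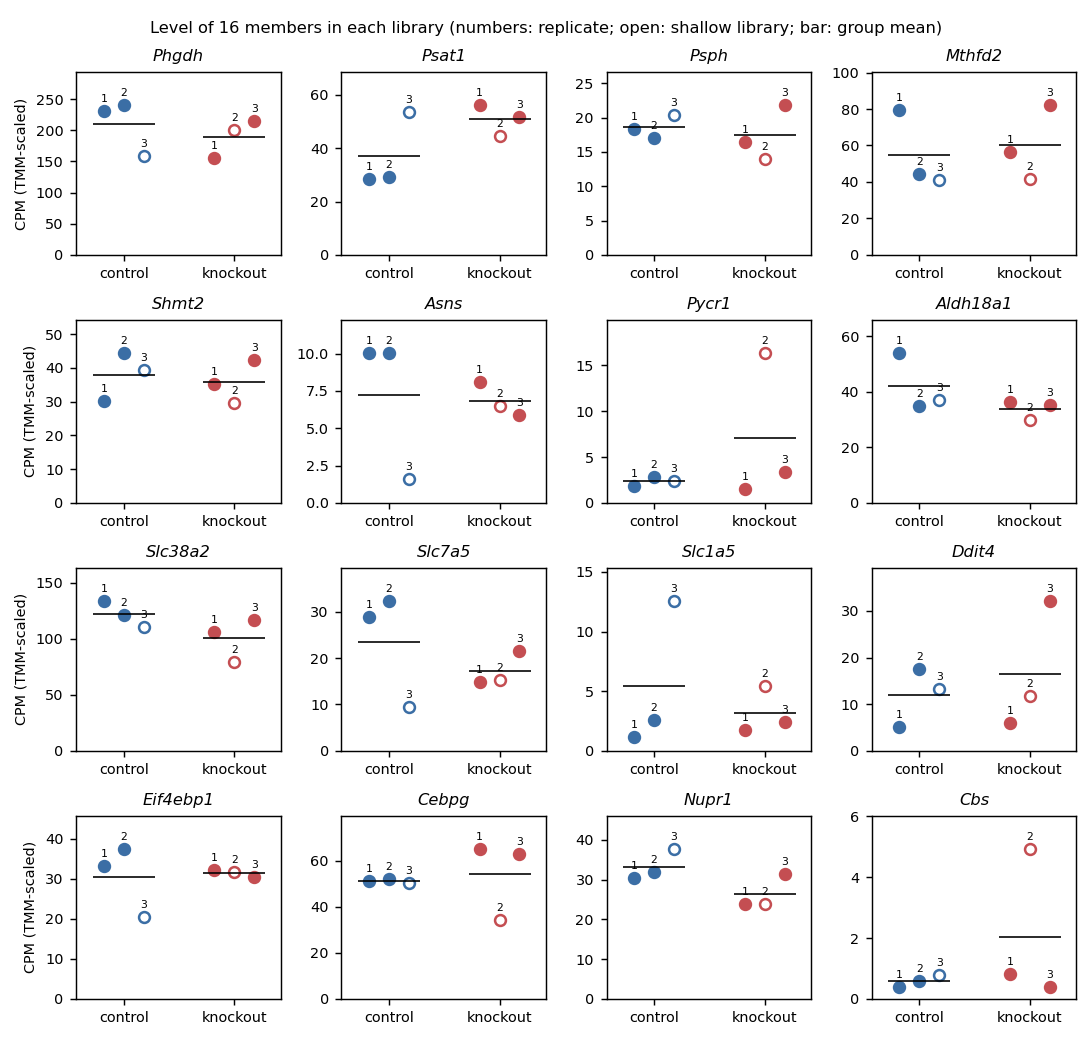
Level of 16 members in each library, in TMM-scaled CPM on linear axes that start at 0; numbers give the replicate, open circles are the shallow libraries control 3 and knockout 2, and bars are group means. The groups overlap in every panel; control 3 stands apart from controls 1 and 2 in Psat1, Slc7a5 and Asns, and knockout 2 lies above the other libraries in Pycr1 and Cbs.

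The folate enzymes pass one-carbon units from serine to nucleotide and methionine synthesis, in the mitochondria through Shmt2, Mthfd2, Mthfd1l and Aldh1l2 and in the cytosol through Shmt1 and Mthfd1. All 6 were tested, and their log2 fold changes of -0.37 to 0.12 were the narrowest range of any role with more than 1 tested gene. Mthfd2 (ENSMUSG00000005667), the mitochondrial dehydrogenase gene that ATF4 induces strongly, had control values of 79.3, 44.5 and 40.9 CPM and knockout values of 56.2, 41.8 and 82.2 CPM. Each group held 1 library near 80 CPM and 1 near 41 CPM. EdgeR gave a log2 fold change of 0.12 (95% interval -0.55 to 0.78). Shmt2, which splits serine inside mitochondria, had 30.2 to 44.4 CPM among controls and 29.6 to 42.3 CPM among knockouts (log2 fold change -0.08, 95% interval -0.56 to 0.40). Mthfd1l, which releases formate to the cytosol, had 7.86 to 11.4 and 7.21 to 12.0 CPM (log2 fold change -0.01, 95% interval -0.78 to 0.76).

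Mthfd1, the trifunctional cytosolic folate enzyme gene, had control values of 27.2, 27.8 and 50.3 CPM and knockout values of 26.5, 36.9 and 29.8 CPM. Both shallow libraries lay above all 4 deep ones. Shmt1 had control values of 6.60, 3.63 and 11.0 CPM and knockout values of 3.79, 6.23 and 5.86 CPM. It had the smallest p of the folate enzymes (log2 fold change -0.34, SE 0.50, edgeR unadjusted p = 0.513). Aldh1l2, which oxidises one-carbon units to CO2, had 0 to 2.55 CPM.

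Asparagine, alanine and proline synthesis is represented by Asns, Gpt2, Pycr1 and Aldh18a1. Asns (ENSMUSG00000029752), the asparagine synthetase gene, had control values of 10.0, 10.1 and 1.57 CPM and knockout values of 8.11, 6.49 and 5.90 CPM. The knockouts lay between control 3, with 2 reads, and the other controls. Its log2 fold change was -0.20 with all libraries (95% interval -1.25 to 0.86), -0.56 without control 3 and 0.076 without control 2. Gpt2, the mitochondrial alanine aminotransferase gene, had no reads in control 3 and 2.34 to 4.92 CPM elsewhere. Aldh18a1 (ENSMUSG00000025007), which encodes the first enzyme of proline synthesis, had control values of 54.0, 35.0 and 36.9 CPM and knockout values of 36.2, 29.9 and 35.2 CPM. Control 1 lay far above the knockouts, control 3 less than 1 CPM above the highest of them and control 2 among them. The log2 fold change of -0.32 (SE 0.22) was -0.08 without control 1.

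Pycr1 (ENSMUSG00000025140), which encodes the last enzyme of proline synthesis in mitochondria, had the second largest log2 fold change of the members and rested on 1 library. It had control values of 1.84, 2.82 and 2.36 CPM and knockout values of 1.51, 16.4 and 3.39 CPM. Knockout 2, with 63 reads, was the only library above 4 CPM. The log2 fold change was 1.53 (SE 0.78, edgeR unadjusted p = 0.0721) and was 0.05 without knockout 2. Cbs, the only tested transsulfuration gene, showed the same library. This gene for the first step from homocysteine to cysteine had control values of 0.394, 0.592 and 0.786 CPM and knockout values of 0.799, 4.94 and 0.372 CPM. Its log2 fold change of 1.80 (SE 1.10, edgeR unadjusted p = 0.123) was 0.12 without knockout 2, where it had 19 reads. A log2 fold change over 1 in size occurred in 2 of the 29 members, these 2 genes, and in 10.7% of all genes tested.

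The amino acid transporter genes were the only role with more than 1 tested gene in which all members had log2 fold changes below 0, with 6 of 6, a median of -0.46 and a range of -0.77 to -0.23, but Slc1a5 and Slc1a4 lay above 0 when certain libraries were left out and Slc1a5 also in limma voom. None of the 6 was called or reached an unadjusted p under 0.05 in edgeR. Their summed level was 201, 179 and 152 CPM among controls and 141, 117 and 169 CPM among knockouts. Knockout 3 lay among the controls, so the groups overlapped. Slc38a2 (ENSMUSG00000022462), the glutamine and alanine carrier SNAT2 and a standard target of amino acid starvation, made up most of the sum. It had control values of 134, 121 and 111 CPM and knockout values of 106, 79.2 and 116 CPM. Knockout 3 lay between controls 2 and 3. This gave a log2 fold change of -0.28 (SE 0.18, 95% interval -0.66 to 0.10, edgeR unadjusted p = 0.133).

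Slc7a5 (ENSMUSG00000040010), the leucine carrier LAT1, had control values of 28.8, 32.3 and 9.43 CPM and knockout values of 14.9, 15.3 and 21.6 CPM. All knockouts lay below controls 1 and 2 and above control 3, which had 12 reads. The log2 fold change was -0.52 (SE 0.35, edgeR unadjusted p = 0.165). Without control 3 it was -0.83 (unadjusted p = 0.00404, edgeR adjusted p = 0.297), and in limma voom -0.76 (unadjusted p = 0.0145, adjusted p = 0.399). Without control 2 it was -0.23. Slc7a5 is abundant in brain endothelium, so endothelial markers were read beside it. Over 7 endothelial markers the sums were 35.6 to 83.3 CPM among controls and 36.7 to 54.8 CPM among knockouts. Most of these sums came from Pecam1, and no marker was at 0 in all libraries. Cdh5 reached 4.71 CPM, Flt1 3.41 CPM and Cldn5 0.26 CPM, the last from 1 read in knockout 2. The part of endothelial RNA in the values of Slc7a5 was not tested.

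Slc7a1, the arginine and lysine carrier gene, had 11.8 to 19.2 CPM among controls and 9.09 to 15.2 CPM among knockouts (log2 fold change -0.40, 95% interval -1.11 to 0.30). Slc1a4, a carrier gene for serine and alanine, had 3.93 to 16.9 and 7.53 to 12.3 CPM. Slc1a5, the glutamine carrier ASCT2, had control values of 1.16, 2.61 and 12.6 CPM and knockout values of 1.75, 5.45 and 2.42 CPM. The shallow libraries held both high values, from 16 and 21 reads. Its log2 fold change was -0.57 with all libraries and 0.68 without control 3, so its sign depended on that library. Slc6a9, the glycine carrier GLYT1, had at most 0.98 CPM.

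**Figure D3:**
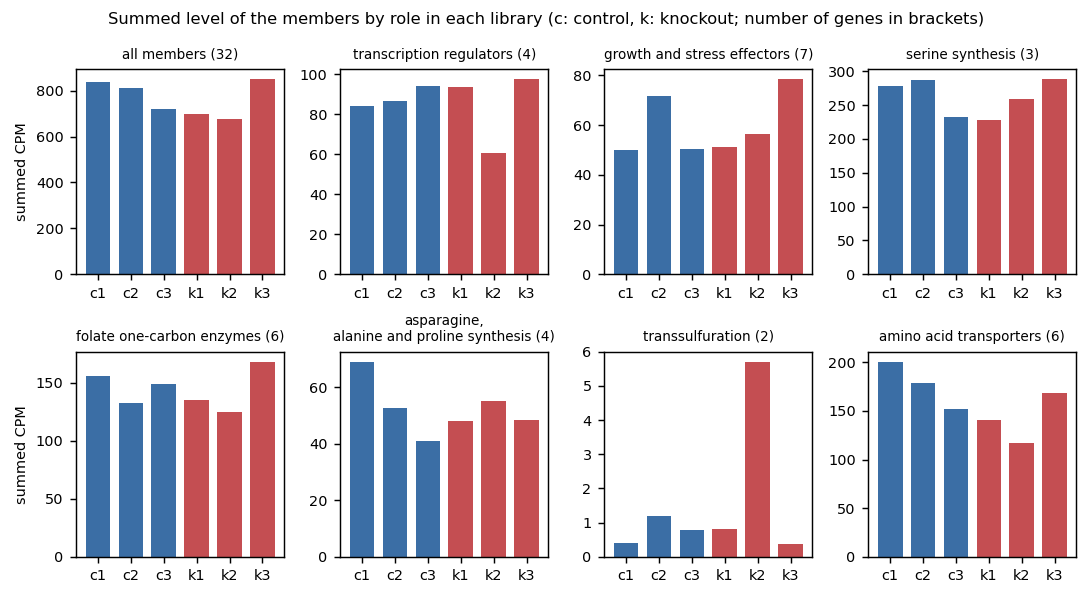
Summed CPM of the members of each role in each library (bars from 0; blue, controls 1 to 3; red, knockouts 1 to 3; the number of genes in brackets). The sums of all 32 members ran from 721 to 838 CPM among controls and from 678 to 850 CPM among knockouts, and the groups overlap in each panel.

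Other genes of the pathway, from 5 lists of 83 genes of which 78 were tested, were not called either. EdgeR called 0 of the 78, where 0.0443% of all genes were called, and at the unadjusted threshold found 3 higher and 2 lower (2.34% and 1.98% of all genes). DESeq2 and limma voom also called 0 of the 78. Genes of 12 aminoacyl-tRNA synthetases, which charge tRNAs and include many ATF4 targets, and of the tRNA exporter Xpot had the tightest values. All 13 were tested, with log2 fold changes of -0.23 to 0.10 and a median of -0.08, and the 95% interval stayed inside -1 to 1 for 12 of them. Sars, the seryl-tRNA synthetase gene, had the smallest p of these 13. It had control values of 136, 143 and 158 CPM and knockout values of 117, 122 and 134 CPM. The groups did not overlap, but knockout 3 and control 1 differed by less than 3 CPM (log2 fold change -0.23, SE 0.15, edgeR unadjusted p = 0.159).

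Among 20 genes listed as ATF4 targets that are not members, 16 were tested, with a median of 0.05 and 1 lower at the unadjusted threshold. Slc38a1, the glutamine carrier SNAT1, had control values of 84.3, 86.3 and 99.8 CPM and knockout values of 68.0, 49.9 and 63.5 CPM. All knockouts lay below all controls, with a log2 fold change of -0.57 (SE 0.18, edgeR unadjusted p = 0.0062, adjusted p = 0.699). The sign held with any 1 library left out, from -0.68 to -0.47.

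Of 19 other folate and methionine cycle genes 18 were tested, with a median of 0.08 and 2 higher at the unadjusted threshold. Aldh1l1, a cytosolic folate enzyme gene also used as an astrocyte marker, had control values of 1.52, 4.57 and 3.93 CPM and knockout values of 10.3, 7.01 and 9.30 CPM. The groups did not overlap (log2 fold change 1.47, SE 0.50, edgeR unadjusted p = 0.0108, adjusted p = 0.878). The other astrocyte markers are given above with Phgdh, and 13.4% of the exonic bases of Aldh1l1 are shared with other genes. Ggh, which trims stored folates, had control values of 63.7, 55.5 and 39.3 CPM and knockout values of 77.6, 102 and 55.3 CPM. Knockout 3 lay among the controls (log2 fold change 0.54, SE 0.24, edgeR unadjusted p = 0.0367). With 1 library left out, the log2 fold change of Ggh ran from 0.30 to 0.72, the latter without knockout 3. It was 0.30 without knockout 2, 0.15 without both shallow libraries and 0.29 in limma voom. The unadjusted p in these last fits was 0.232, 0.464 and 0.198.

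The list of 16 other amino acid metabolism genes was tested in full, with 6 log2 fold changes above 0, 10 below 0 and a median of -0.09, and 0 of its genes were called.

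Whether the groups overlapped depended on control 3 in several members, at a share near that of all genes tested. Against controls 1 and 2 alone, the knockouts lay wholly above in 2 of the 29 tested members, Atf5 and Psat1, and wholly below in 5, namely Eif4ebp1, Phgdh, Asns, Slc7a5 and Slc38a2. These 7 were 24.1% of the members, and 23.5% of all genes tested were separated in this way (10.9% above and 12.5% below). The edgeR fit without control 3 again called 0 members, against 0.287% of the genes tested in it, and at the unadjusted threshold gave 1 higher, Psat1, and 1 lower, Slc7a5. That fit gave an unadjusted p under 0.05 for 7.15% of its genes. Both shallow libraries lay above all 4 deep ones in 2 members, Mthfd1 and Slc1a5, or 6.90%, and below all of them in 5, or 17.2%. For all genes tested these shares were 9.67% and 14.3%.

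**Figure D4:**
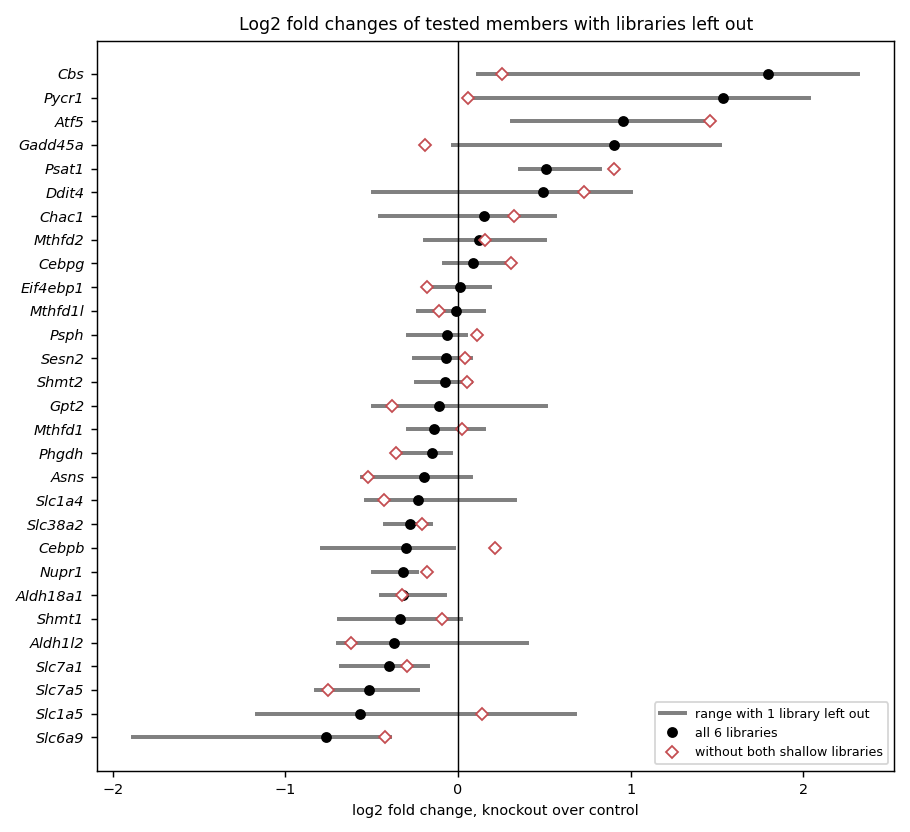
Log2 fold change of each tested member with all 6 libraries (black), its lowest to highest value when any 1 library is left out (grey line) and its value without both shallow libraries (open diamonds). Cbs and Pycr1 come close to 0 without knockout 2, while Psat1 stays between 0.36 and 0.82 with any 1 library left out.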

How the data were processed

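RNA-seq of sorted microglia gave 1 library per mouse, and per the labels each is a biological replicate. The authors deposited unnormalized whole-number counts of reads for each gene. The submitters' processing notes name STAR, featureCounts of Subread, Salmon and bcl2fastq and the build GRCm39, without their roles, and no strand setting was found in the sources used here. Of 55774 rows, 287 repeated an identifier and were left out. Of the identifiers 99.4% were found in GENCODE M21, which gave exon lengths and overlaps but no coordinates.

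The main test was the quasi-likelihood F-test of edgeR 4.0.16 under R 4.3.3 (default expression filter, TMM, robust fit, group as the only term), with Benjamini-Hochberg adjustment over 15787 genes and a threshold of 0.05. DESeq2 1.42.0 and limma 3.58.1 (voom) were alternatives, as were other scalings and filters, no robust option, the replicate block and leaving out libraries. Standard errors are the coefficient divided by the root of F, and intervals use the test's degrees of freedom. The steps were tested on simulated data. No molecular identifiers were mentioned, so read floors cover counting error only.

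Members and lists were chosen with earlier results of these data known, so no list was tested as a set. Values in each library were given for the member with the smallest p and that with the highest CPM in each role, for pathway genes at an unadjusted p under 0.05 or, with none, the smallest p, and for Atf4 and Ddit3. Asns, Chac1, Ddit4, Mthfd1, Slc1a5 and Slc7a5 were added after their values were seen. The results of some listed genes are not reported here.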

Additional observations from a re-analysis of the deposited data

How the results depend on the processing

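No member was called in any of the 15 alternatives, and the smallest adjusted p over 425 pairs of member and alternative was 0.115. In 51 of these pairs, spread over 18 members, the sign differed from that with all libraries. The median of the members stayed below 0, between -0.26 and -0.03 with 1 library left out. Members at an unadjusted p under 0.05 numbered 1 higher with library totals or the replicate block, 2 higher with no filter or DESeq2, and 1 higher and 1 lower in voom and without both shallow libraries; with 1 library left out they were 0 to 1 higher and 0 to 1 lower. In these fits 5.02% (library totals), 4.44% (block), 4.92% (no filter) and 6.99% (without both shallow libraries) of all genes tested had such a p. With 1 library left out this share ran from 2.88% without knockout 1 to 7.15% without control 3. Over all genes edgeR called 5 higher and 2 lower. These counts were 60 and 42 with no filter, 49 and 34 in DESeq2, 9 and 6 in voom, 1 and 1 without the robust option, 16 and 9 with the replicate block, 9 and 30 without both shallow libraries, and 1 to 15 and 1 to 35 with 1 library left out. The stricter filter tested fewer genes and gave no value for the members it dropped.

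Signs turned as follows, and the cause was not tested. Voom gave 0.074 for Cebpb, -0.024 for Chac1, -0.13 for Eif4ebp1, 0.028 for Mthfd1, 0.028 for Psph, 0.029 for Sesn2, 0.016 for Shmt2, 0.24 for Slc1a5 and -0.034 for Atf4. Without both shallow libraries the values were 0.21 for Cebpb, -0.18 for Eif4ebp1, -0.19 for Gadd45a, 0.025 for Mthfd1, 0.018 for Ddit3, 0.11 for Psph, 0.041 for Sesn2, 0.050 for Shmt2 and 0.14 for Slc1a5. The replicate block gave 0.038 for Aldh1l2, 0.054 for Asns, -0.26 for Chac1, 0.094 for Gpt2 and 0.0079 for Mthfd1l. Eif4ebp1 had -0.015 with no filter and -0.018 in DESeq2, and Mthfd1l had 0.048 with library totals. With 1 library left out the ranges were -0.70 to 0.40 for Aldh1l2, -0.56 to 0.076 for Asns, -0.084 to 0.31 for Cebpg, -0.45 to 0.56 for Chac1, -0.49 to 0.999 for Ddit4, -0.18 to 0.19 for Eif4ebp1, -0.027 to 1.52 for Gadd45a and -0.49 to 0.51 for Gpt2. They were -0.29 to 0.15 for Mthfd1, -0.23 to 0.15 for Mthfd1l, -0.19 to 0.50 for Mthfd2, -0.29 to 0.043 for Psph, -0.25 to 0.074 for Sesn2, -0.69 to 0.019 for Shmt1, -0.24 to 0.074 for Shmt2, -0.53 to 0.33 for Slc1a4, -1.17 to 0.68 for Slc1a5 and -0.22 to 0.19 for Atf4.

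Same-numbered control and knockout libraries had correlations of their deviations from the group means of 0.30, -0.22 and -0.06 for numbers 1 to 3. The shallow libraries, control 3 and knockout 2, had 0.29. With 3 libraries in each group these values cannot show whether the numbers pair the samples. The block moved the counts of calls over all genes as given above and called no member. The call of Atg7 was lost without the robust option and with any library other than control 3 left out, with log2 fold changes of -1.39 to -1.29, and was kept without control 3 at -1.41. Depth limits the members most in control 3, where all 32 together had 917 reads and 6 had none.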

Other observations

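Of the 78 tested pathway genes, the groups did not overlap in 6 with knockouts higher and in 5 with knockouts lower. The shares of all genes tested were 6.59% and 4.47%. Slc7a11 and Impact, among the 6, had no place in the comparisons above and were picked with their values in view. Slc43a1, also an amino acid transporter gene, and Ppp1r15b were among the 5, with log2 fold changes of -1.28 and -0.21. Slc7a11, the cystine carrier gene of the glutathione supply and another ATF4 target, had control values of 6.02, 4.38 and 7.86 CPM and knockout values of 11.5, 10.4 and 8.55 CPM. Its log2 fold change was 0.80 (edgeR unadjusted p = 0.0629, adjusted p = 0.999), opposite in sign to the 6 neutral and cationic amino acid transporter members. Impact, which encodes an inhibitor of the eIF2 kinase GCN2, had control values of 90.7, 87.6 and 64.4 CPM and knockout values of 108, 103 and 94.6 CPM (log2 fold change 0.32, edgeR unadjusted p = 0.0834).

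Amt, a gene of the glycine cleavage system, separated the libraries by depth and not by group. It had 72.3 CPM in control 3 and 28.8 CPM in knockout 2, from 92 and 111 reads, and 3.29 to 4.93 CPM in the 4 deep libraries.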
